A study of Aspergillus glaucus with 6 samples.

Results

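The comparison described here is culture time in moderate salt: mycelium of Aspergillus glaucus CCHA treated with 1 M NaCl for 84 h, set against mycelium treated with 1 M NaCl for 36 h. These are 2 of the 6 RNA sequencing libraries of the study, 1 per condition, all of strain CCHA. The other 4 libraries, used here for the levels of the same genes, come from mycelium in 0 M, 3 M and 4 M NaCl at 84 h and in 3 M NaCl at 36 h. The labels give the cells only as "cell" and the times as lengths of treatment, and any growth before treatment is not given in them. Of 8441 gene IDs with a read in any library, 6391 were compared, of which 245 had a 4-fold or larger increase at 84 h and 184 a 4-fold or larger decrease, and both groups are followed through all 6 libraries.

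Aspergillus glaucus belongs to the fungi that grow on salted, sugared or dry substrates. Filamentous fungi balance the pull of external salt mainly by making compatible solutes such as glycerol, under the control of a mitogen-activated protein kinase pathway. A fungal culture also changes with age, as nutrients run down, and older cultures can turn from growth to spore formation and secondary metabolism. No gene names accompany the IDs in the files, and 0 of the IDs matched a RefSeq table of 11428 genes of another strain of the species (assembly Aspgl1). Genes are therefore described as groups, with 4 IDs named, and no ID is assigned to any of these processes. For the same reason the cell types in the mycelium could not be checked against markers.

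Values are CPM, counts scaled to library size and by TMM, a factor that corrects for a few genes taking many reads. They are not divided by gene length, so that they compare libraries and not genes. Total counts ran from 16371771 to 18376857, and 3 counts, the limit that a count of 0 allows, correspond to between 0.155 and 0.185 CPM. Intervals and limits cover counting error only. They treat each read as independent, whereas reads that carry no molecular identifiers do not each stand for a molecule. The intervals may thus be too narrow even for counting error. With 1 library a side, no difference could be set against a spread between cultures and none has a p-value. In a bulk sample, fewer cells of a type and less RNA per cell cannot be told apart. The libraries of 4 M at 84 h and 3 M at 36 h stood apart from the rest: 140 of 5908 genes were 4-fold apart between them, the fewest of any pair, against at least 679 genes between either of them and any other library. The library nearest to 3 M at 84 h was that of 1 M at 36 h, with 276 genes 4-fold apart, against 752 between the 2 libraries of 3 M. Each 3 M library was thus nearer to another condition than to the other 3 M library. The 1 M library at 36 h was likewise nearer to other conditions than to 1 M at 84 h. It had 261 genes 4-fold apart from 0 M, 276 from 3 M at 84 h and 429 from 1 M at 84 h. For 1 M at 84 h the nearest library was that of 1 M at 36 h. The labels of the 1 M libraries were not tested. Whether the 3 M labels of 84 h and 36 h are exchanged was not tested. An exchange would swap the values given below for the 2 libraries of 3 M and turn the sign of each change with time in 3 M. The contrast in 1 M uses none of the 3 M and 4 M libraries except in the scaling. With TMM factors from the 1 M libraries alone it gave 245 higher and 183 lower genes.

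Both directions were populated when the 1 M culture at 84 h was set against that at 36 h. Of the genes compared, which had at least 10 CPM in at least 1 of the 2 libraries, 245 (3.83%) had a 4-fold or larger increase at 84 h and 184 (2.88%) a 4-fold or larger decrease, together 6.71%. At 2-fold the numbers were 758 higher (11.9%) and 646 lower (10.1%). At 16-fold they were 50 (0.782%) and 33 (0.516%), and at 64-fold 7 in each direction (0.11% each). The remaining genes stayed close, with 78.0% of all genes compared less than 2-fold apart and a median log2 fold change of 0.02.

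In 1 M the share of counts in the 245 higher genes was 7.44% at 84 h and 0.975% at 36 h. The share in the 184 lower genes was 1.13% at 84 h and 8.16% at 36 h. Each exact (Clopper-Pearson) 95% interval of these shares is at most 0.026 percentage points wide. Their log2 fold changes, on log2 CPM with a prior count of 2, had a median of 2.68 in the higher group and -2.64 in the lower group. At the edge of the rule the nearest higher gene inside had 2.001 and the nearest outside 1.996. On the lower side these values were -2.0003 and -1.98. The excess of higher over lower genes depended on the filter: with no minimum CPM, 295 genes were higher and 309 lower.

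Every higher gene passed the filter through its 84 h level, and 134 of the 245 also had at least 10 CPM at 36 h. Every lower gene passed through its 36 h level, and 101 of the 184 also had at least 10 CPM at 84 h. A single gene of the lower group had no read at 84 h, with 256 counts (14.8 CPM) at 36 h. Against the limit of 3 counts in the 84 h library, it was at least 87.9-fold lower.

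**Figure D1:**
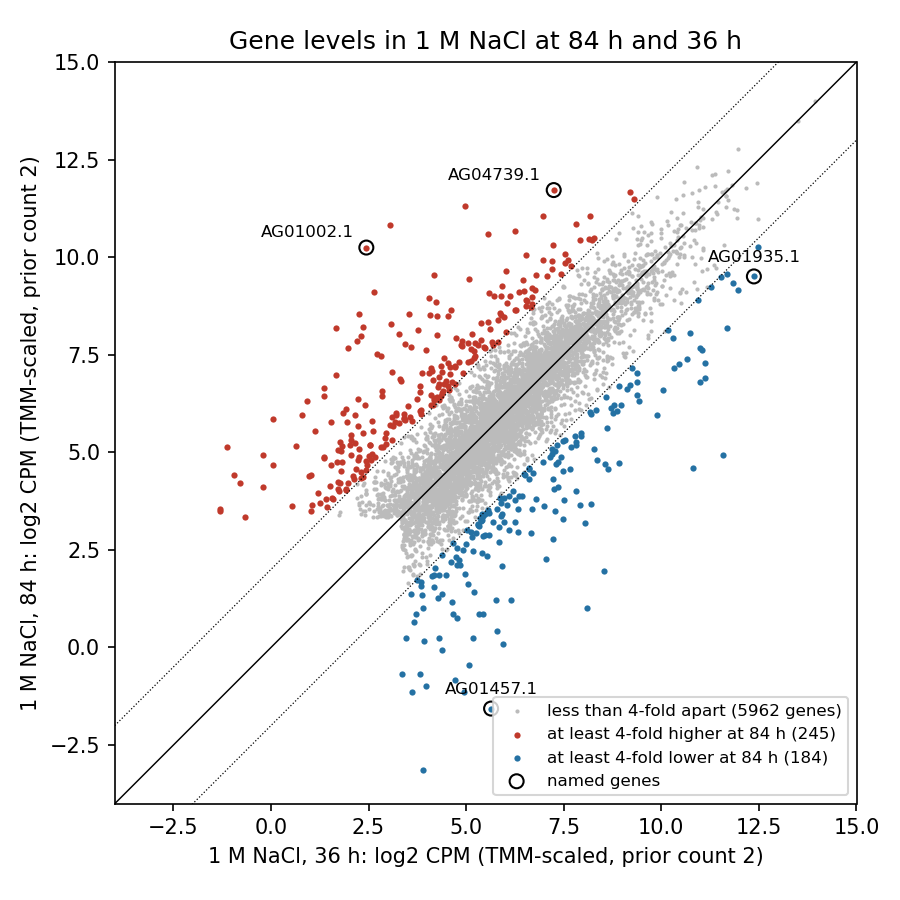
Level of each of 6391 genes in 1 M NaCl at 84 h (vertical axis) and 36 h (horizontal axis), both as log2 CPM, 1 library each, with dotted lines at 4-fold. The 245 higher genes (red) and 184 lower genes (blue) lie on both sides of the diagonal, and the 4 named genes are ringed.

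AG01002.1 had the largest fold change upwards. It had 21594 counts (1213 CPM) at 84 h and 92 counts (5.33 CPM) at 36 h in 1 M, which is 7.80 as log2 fold change (counting interval, exact and at 95%, 7.54 to 8.14). In the other libraries it had 47.6 CPM in 0 M, 0.414 CPM in 3 M and 3.28 CPM in 4 M at 84 h, and 6.73 CPM in 3 M at 36 h. The 1 M library at 84 h thus stood far above the other 5, and among those the 0 M library was the highest. In 3 M the same gene was lower at 84 h than at 36 h, with 8 counts at 84 h and 109 at 36 h (-3.70 as log2 fold change, counting interval -5.27 to -2.99). With the 3 M labels exchanged this value would be 3.70, with the sign of 1 M.

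AG04739.1 had the largest difference in CPM upwards. Its level was 3368 CPM at 84 h and 151 CPM at 36 h in 1 M, a log2 difference of 4.47 (counting interval 4.42 to 4.53). It had 286 CPM in 0 M, 805 CPM in 3 M and 126 CPM in 4 M at 84 h, and 83.9 CPM in 3 M at 36 h. In 3 M the library labelled 84 h was also the higher one, with a log2 fold change of 3.26 (3.18 to 3.34), which would be -3.26 with the 3 M labels exchanged.

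AG01457.1 had the largest fold change downwards among genes whose counting interval excludes 2-fold. It had 4 counts (0.225 CPM) at 84 h and 859 counts (49.7 CPM) at 36 h in 1 M, a log2 fold change of -7.20 (-9.67 to -6.43). It had 4.97 CPM in 0 M, 45.9 CPM in 3 M and 0.557 CPM in 4 M at 84 h, and 10.6 CPM in 3 M at 36 h. The 3 M library at 84 h was thus near the 36 h level of 1 M, and the 4 M library near the 84 h level. In 3 M the gene was higher at 84 h than at 36 h (log2 fold change 2.11, interval 1.88 to 2.36), which would be -2.11 with the 3 M labels exchanged.

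AG01935.1 had the largest difference in CPM downwards. It stood at 727 CPM at 84 h and 5299 CPM at 36 h in 1 M, a log2 difference of -2.87 (counting interval -2.89 to -2.84). It had 1119 CPM in 0 M, 321 CPM in 3 M and 7196 CPM in 4 M at 84 h, and 6249 CPM in 3 M at 36 h. It was high in 1 M at 36 h, in 4 M at 84 h and in the library labelled 3 M at 36 h, and low in the other 3. In 3 M its log2 fold change with time was -4.28 (-4.32 to -4.24), which would be 4.28 with the 3 M labels exchanged.

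**Figure D2:**
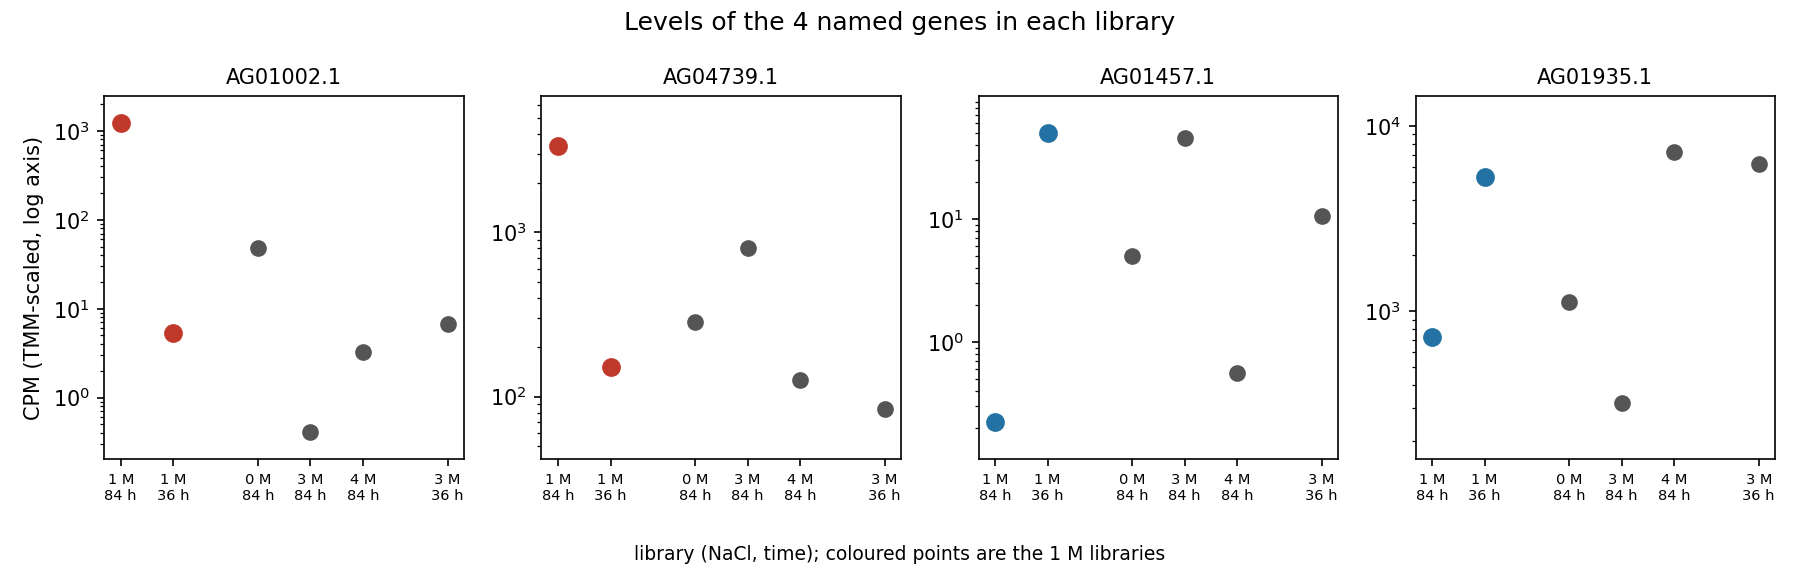
Level of AG01002.1, AG04739.1, AG01457.1 and AG01935.1 in each of the 6 libraries, as CPM on a log axis with its own range for each gene, 1 point per library. AG01002.1 reached 1213 CPM in 1 M at 84 h and at most 47.6 CPM elsewhere, whereas AG01935.1 had at least 5299 CPM in 1 M at 36 h, 3 M at 36 h and 4 M at 84 h.

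The higher genes had lower levels in the other 4 libraries than in 1 M at 84 h. Their median level was 108 CPM at 84 h (quartiles 37.4 and 335) and 13.6 CPM at 36 h (4.52 and 36.7) in 1 M. In the libraries that did not choose them it was 21.7 CPM in 0 M, 18.9 CPM in 3 M and 7.74 CPM in 4 M at 84 h, and 4.69 CPM in 3 M at 36 h. Together they made up 1.97%, 1.81% and 1.04% of counts in 0 M, 3 M and 4 M at 84 h and 0.778% in 3 M at 36 h.

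For 141 of the 245 higher genes (57.6%), the level in all 4 other libraries was nearer, on the log2 scale, to that of 1 M at 36 h than to that of 1 M at 84 h. The number of higher genes nearer to the 84 h level was 37 in 0 M, 59 in 3 M and 33 in 4 M at 84 h, and 19 in 3 M at 36 h. Only 1 gene was nearer to the 84 h level in all 4. Leaving out the 4 M library and the 3 M library at 36 h, which stand apart, 155 of the 245 (63.3%) had neither of the remaining libraries nearer to the 84 h level. The choice of genes favours such counts, since they were picked as high in 1 M at 84 h.

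In 4 M at 84 h and 3 M at 36 h, many higher genes lay below both libraries of 1 M. This held for 158 of the 245 in 4 M (64.5%, background over all genes compared 38.1%) and for 186 in 3 M at 36 h (75.9%, background 41%). It held for 54 in 0 M (22.0%, background 29.1%) and 74 in 3 M at 84 h (30.2%, background 28.6%). At least 4-fold below both libraries of 1 M were 66 genes in 4 M (26.9%, background 8.65%) and 64 in 3 M at 36 h (26.1%, background 7.39%). In 0 M there were 2 (background 1.24%) and in 3 M at 84 h 13 (5.31%, background 1.69%). The genes were chosen by the same levels of 1 M, which lie close together for most genes compared. The backgrounds are therefore not like baselines, and the differences from them were not tested. The 1 M library at 84 h had the highest level of the 6 for 227 genes, and the 3 M library at 36 h the lowest for 116. The choice of genes favours 1 M at 84 h as the highest. The 50 genes at least 16-fold higher had medians of 214 CPM at 84 h and 4.72 CPM at 36 h in 1 M. In the other 4 libraries their medians lay between 2.28 and 7.95 CPM, and between 2 and 7 of the 50 were nearer to the 84 h level. These 50 were picked by their level in 1 M at 84 h too, which favours such low numbers.

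**Figure D3:**
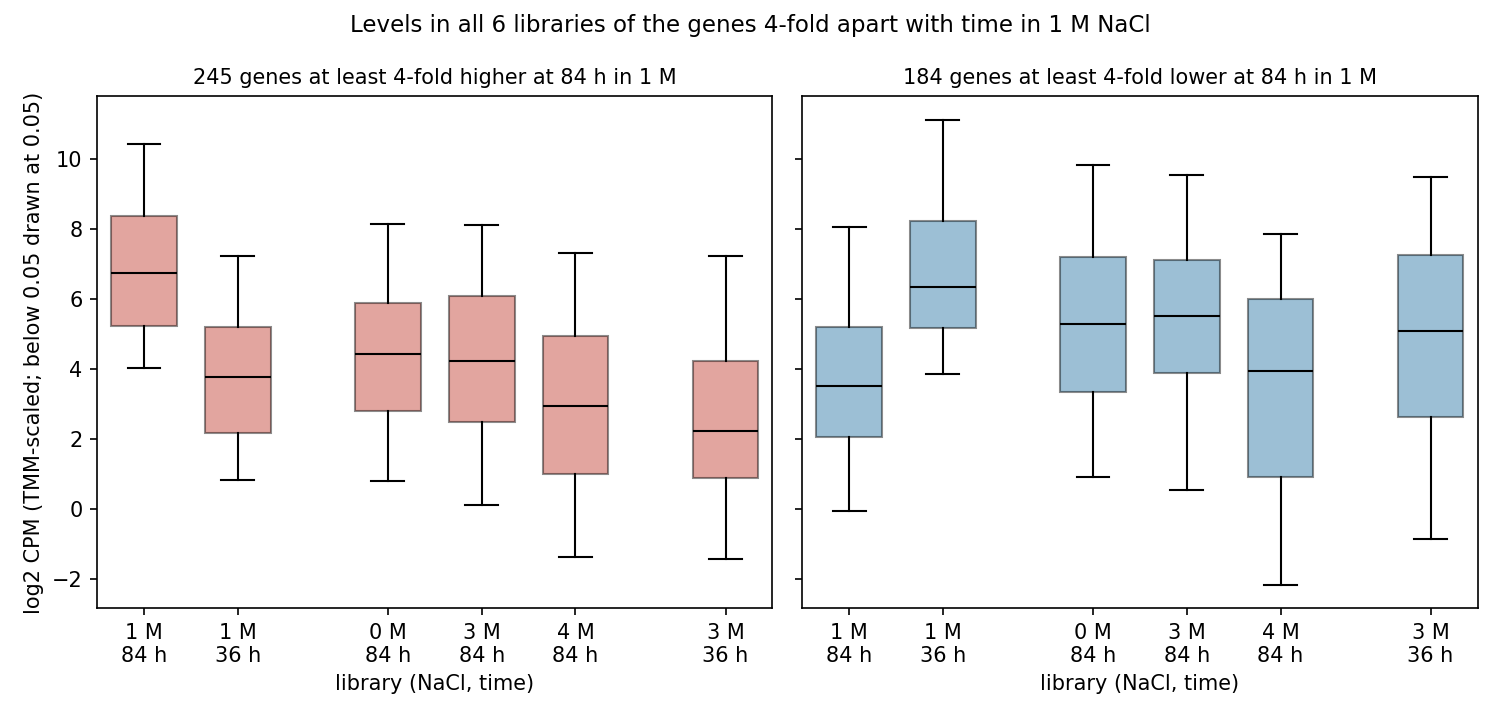
Levels of the 245 higher genes (left) and 184 lower genes (right) in each library, as log2 CPM, with boxes at the quartiles, a line at the median and whiskers at the 5th and 95th percentiles over genes. The higher genes stand out in 1 M at 84 h (median 108 CPM against 4.69 to 21.7 CPM elsewhere), and the lower genes have intermediate medians in most other libraries.

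The lower genes were less uniform. Their median level was 11.5 CPM at 84 h (quartiles 4.21 and 36.9) and 81.0 CPM at 36 h (35.8 and 299) in 1 M. It was 39.0 CPM in 0 M, 46.1 CPM in 3 M and 15.4 CPM in 4 M at 84 h, and 34.4 CPM in 3 M at 36 h. The medians in 0 M and in both 3 M libraries thus lay between those of 1 M, and that in 4 M was close to 1 M at 84 h. Gene by gene, 98 of the 184 in 4 M lay below both libraries of 1 M (53.3%, background 38.1%). At least 4-fold below both were 40 (21.7%, background 8.65%). In 3 M at 36 h these numbers were 52 (28.3%, background 41%) and 26 (14.1%, background 7.39%). Below both were 33 in 0 M (17.9%, background 29.1%) and 40 in 3 M at 84 h (21.7%, background 28.6%). As for the higher genes, the levels of 1 M also chose the group, so that these backgrounds are not like baselines. The group made up 3.40%, 3.32% and 2.20% of counts in 0 M, 3 M and 4 M at 84 h and 3.29% in 3 M at 36 h.

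Of the 184 lower genes, 37 (20.1%) were nearer to the 84 h level of 1 M in all 4 other libraries, so that 1 M at 36 h was the one with a high level. Their medians were 14.7 CPM at 84 h and 126 CPM at 36 h in 1 M. In the other libraries they were 14.1, 13.3 and 1.73 CPM in 0 M, 3 M and 4 M at 84 h and 6.54 CPM in 3 M at 36 h. Another 27 (14.7%) were nearer to the 36 h level in all 4, so that 1 M at 84 h was the one with a low level. Those had medians of 9.38 CPM at 84 h and 47.3 CPM at 36 h in 1 M. In the other libraries they were 56.9, 40.2 and 89.6 CPM in 0 M, 3 M and 4 M at 84 h and 122 CPM in 3 M at 36 h. The choice of genes favours both kinds, since they were picked as high in 1 M at 36 h and low in 1 M at 84 h.

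The remaining 120 lower genes were divided between the libraries. By library, 89 of the 184 were nearer to the 84 h level of 1 M in 0 M, 77 in 3 M and 134 in 4 M at 84 h, and 94 in 3 M at 36 h. With only 0 M and 3 M at 84 h considered, 49 genes had both libraries nearer to the 84 h level and 67 had neither. The 4 M library had the lowest level of the 6 for 84 genes and 1 M at 84 h for 71. The highest was 1 M at 36 h for 110 genes, 3 M at 36 h for 25, 3 M at 84 h for 22 and 0 M for 19. Here too the choice of genes favours the libraries of 1 M at the extremes. Of the 33 genes at least 16-fold lower, 29 were nearer to the 84 h level in 4 M, 14 in 0 M and 10 in 3 M at 84 h, and 16 in 3 M at 36 h.

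**Figure D4:**
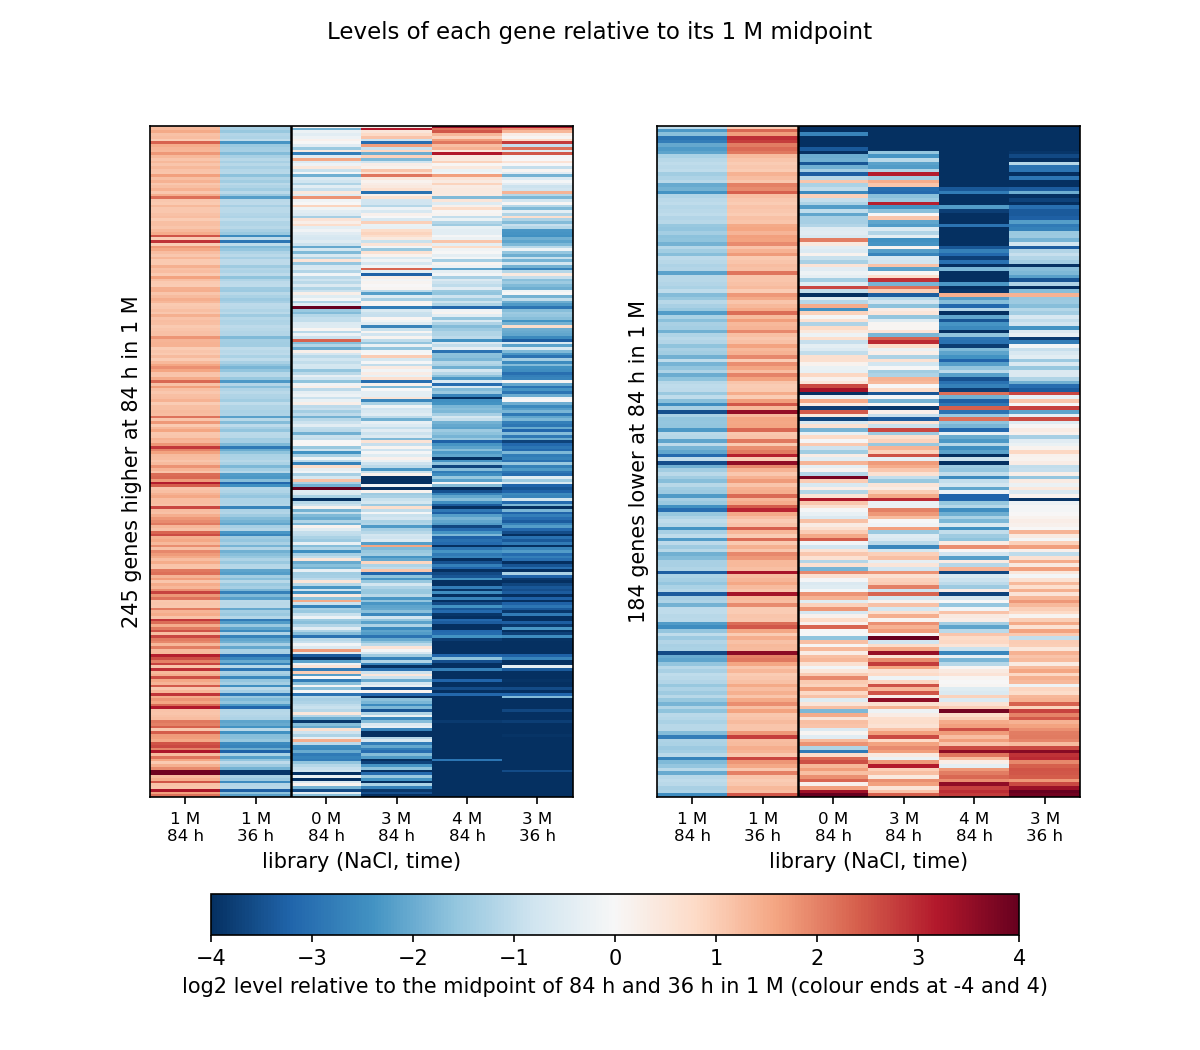
Level of each of the 245 higher genes (left) and 184 lower genes (right) in each library, as log2 distance from the midpoint of the gene's levels in 1 M at 84 h and 36 h (red above, blue below, colour ending at 4). Genes are sorted by their mean over the 4 libraries right of the black line, where most higher genes are blue while the lower genes run from blue to red.

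The same genes were then compared among the 4 libraries that did not choose them. All 245 and all 184 were kept, whatever their level there, and the background is the same 6391 genes. Setting libraries with 0 reads to the limit of 3 counts gave the same medians to 2 decimals. In 4 M against 0 M at 84 h, 11 higher genes were 4-fold higher (background 2.32%) and 85 were 4-fold lower (background 10.3%), which is 4.49% and 34.7% of the group. Their median log2 fold change was -1.12, against 0.07 over all genes compared. Of the 184 lower genes, 12 (6.52%) were 4-fold higher and 83 (45.1%) 4-fold lower in 4 M, with a median of -1.78. Both groups, opposite with time in 1 M, thus had lower medians in 4 M than in 0 M.

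Set against 3 M in place of 0 M, the 4 M library gave like values. At 84 h, 16 higher genes (6.53%, background 1.75%) were 4-fold higher and 69 (28.2%, background 9.65%) 4-fold lower, with a median log2 fold change of -1.15 against 0.05 over all genes. Among the lower genes, 8 (4.35%) were 4-fold higher and 83 (45.1%) 4-fold lower, with a median of -1.56. In 3 M against 0 M at 84 h the medians were near 0, at 0.06 in the higher and -0.002 in the lower group, against -0.01 over all genes. There 14 higher genes (5.71%, background 1.82%) were 4-fold higher and 33 (13.5%, background 2.77%) 4-fold lower. In the lower group, 24 genes were 4-fold higher and 25 4-fold lower (13.0% and 13.6%).

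Between the libraries that stand apart, the groups differed. In 4 M at 84 h against 3 M at 36 h, the higher genes had a median log2 fold change of 0.46 with 7 genes 4-fold higher (background 0.313%) and 7 4-fold lower (background 2.24%). The lower genes had a median of -1.17, with 0 genes 4-fold higher and 49 (26.6%) 4-fold lower. The median over all genes was 0.03. This pair differs in both salt and time. In 3 M at 36 h against 0 M at 84 h, the median was -1.75 in the higher group, with 98 genes (40.0%, background 8.36%) 4-fold lower and 6 (background 1.74%) 4-fold higher. It was -0.35 in the lower group, with 30 genes (16.3%) 4-fold lower and 18 4-fold higher.

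Within these 4 libraries, the highest level of a higher gene fell in 3 M at 84 h for 104 genes (42.4%) and in 0 M for 98 (40.0%). Over all genes compared these shares were 27.1% and 23.6%. The lowest level was in 3 M at 36 h for 127 higher genes (51.8%), against 25.5% of all genes. For the lower genes the lowest was 4 M for 116 (63.0%), against 22.4% of all genes, and 3 M at 36 h for 10 (5.43%).

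Culture time in 3 M NaCl, 84 h against 36 h, shares no library with the contrast in 1 M. The higher genes of 1 M had a median log2 fold change of 1.70 with time in 3 M, against 0.04 over all genes compared. With the 3 M labels exchanged the median would be -1.70, and the counts of higher and lower genes in 3 M given next would change places. Of the 245, 108 (44.1%, background 8.48%) were 4-fold higher at 84 h in 3 M as well, which is 19.9% of the 542 genes 4-fold higher there, and 16 (6.53%, background 2.97%) were 4-fold lower. With a counting interval wholly beyond 4-fold as the rule, 211 genes were higher in 1 M, and 68 of them were higher in 3 M as well. No background was computed by that rule. The 108 genes had medians of 131 CPM at 84 h and 17.2 CPM at 36 h in 1 M, and of 31.5 CPM at 84 h and 2.81 CPM at 36 h in 3 M. Their median in 4 M at 84 h was 4.48 CPM and in 0 M 26.1 CPM.

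The lower genes of 1 M had no common direction with time in 3 M. Their median log2 fold change there was 0.31 (-0.31 with the 3 M labels exchanged). At 84 h, 37 genes (20.1%, background 8.48%) were 4-fold higher and 17 (9.24%, background 2.97%) 4-fold lower. The 37 make up 6.83% of the genes 4-fold higher with time in 3 M, and the 17 make up 8.95% of the 190 4-fold lower. With the counting interval in both comparisons, 20 of 152 lower genes were higher at 84 h in 3 M, again without a background by that rule. The 37 genes had medians of 10.5 CPM at 84 h and 58.9 CPM at 36 h in 1 M, but of 75.6 CPM at 84 h and 3.46 CPM at 36 h in 3 M. The 17 had medians of 13.9 CPM at 84 h and 103 CPM at 36 h in 1 M, and of 26.4 CPM at 84 h and 210 CPM at 36 h in 3 M, with 157 CPM in 4 M at 84 h. Whether the change with time differs between 1 M and 3 M was not tested, since each condition has 1 library.

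**Figure D5:**
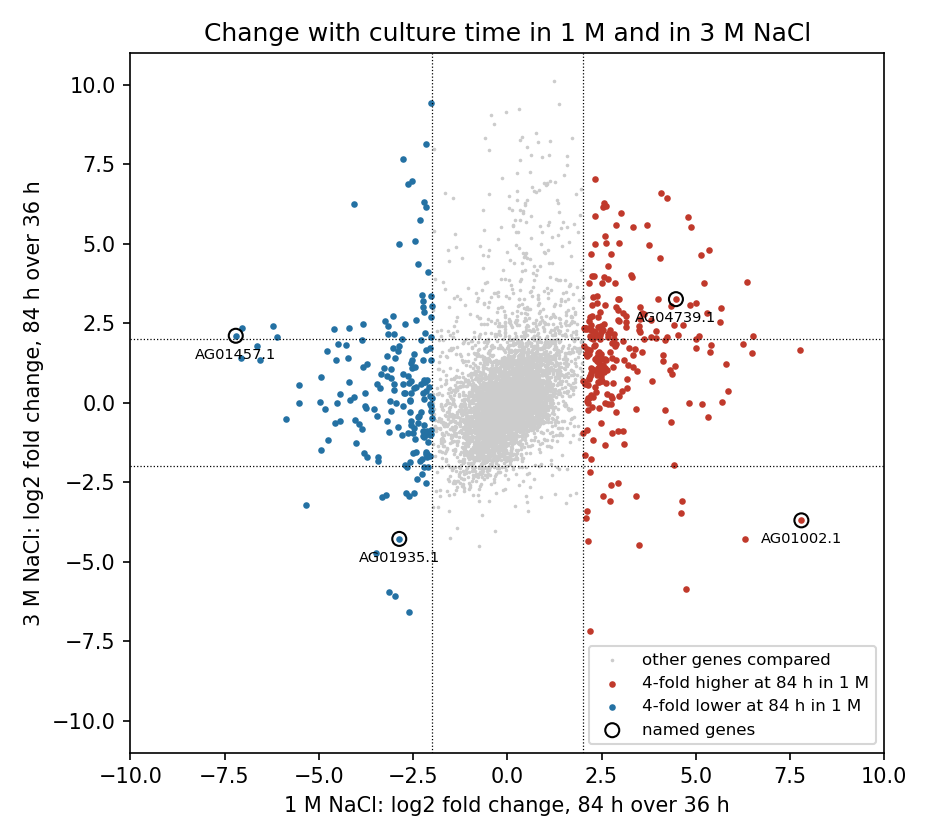
Log2 fold change of 84 h over 36 h in 1 M NaCl (horizontal axis) and in 3 M NaCl (vertical axis) for 6391 genes, with times in 3 M as labelled, dotted lines at 4-fold and the named genes ringed. Of the 245 higher genes of 1 M (red) 108 lie above the upper dotted line and 16 below the lower one, and of the 184 lower genes (blue) 37 and 17.

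Members of both groups were in part neighbours in the ID numbering. The next ID in the numbering was also a member for 21 of the 245 higher genes (8.57%), against 3.83% of all genes compared in the group, and for 16 of the 184 lower genes (8.70%), against 2.88%. A next ID could also be one that was not compared, so that these shares have unlike bases. In all, 38 higher genes lay in 17 runs of at least 2 consecutive IDs and 31 lower genes in 15 runs. Where 2 consecutive IDs were both 4-fold apart, they had the same direction in 37 pairs and opposite directions in 7. The 37 pairs are the 21 and 16 already counted, and no background was computed for the split by direction. The ID order is a numbering, and gene positions were not analysed here.

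The longest run held 5 consecutive IDs, all higher at 84 h, and ended 3 numbers before AG04739.1. Their levels ranged from 72.8 to 2125 CPM at 84 h and from 11.3 to 126 CPM at 36 h in 1 M. The median over the 5 was 795 CPM at 84 h and 64.3 CPM at 36 h in 1 M. It was 137, 287 and 17.1 CPM in 0 M, 3 M and 4 M at 84 h, and 7.78 CPM in 3 M at 36 h. By the median, the libraries came in the same order as for AG04739.1, with 1 M at 84 h the highest and 3 M at 36 h the lowest. Reads shared between near-identical neighbours could not be recognised.

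The groups were spread over all levels of abundance. By mean CPM over the 6 libraries, genes of 300 CPM or more included 20 higher and 26 lower genes of 642 compared (3.12% and 4.05%). Between 30 and 100 CPM there were 75 higher and 56 lower genes of 2556 (2.93% and 2.19%). Under 10 CPM there were 42 higher and 21 lower genes of 268 (15.7% and 7.84%), where a gene entered only through a level of at least 10 CPM in a library of 1 M.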

How the data were processed

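RNA was measured in 6 libraries, 1 per condition. Per the labels' protocols, mycelium was collected by filtration and frozen, and RNA was extracted with TRIzol and cleaned on RNeasy columns. The authors deposited raw read counts per gene, 1 list per library. Per the submitters' processing notes, the tools included TopHat2 2.0.8b as well as HTSeq 0.5.4p2. Not given in the sources used here are the genome build, the annotation, the strand setting and any filters. Listed counts start at 1, so an absent gene was taken as 0.

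TMM factors over the 6 libraries came from edgeR 4.0.16 in R 4.3.3. Fold changes used log2 CPM with a prior count of 2, genes needed 10 CPM in at least 1 of the 2 libraries, and called means 4-fold. With no replicates there was no test. Ratios and shares have exact 95% intervals (Clopper-Pearson, SciPy 1.17.1). The 6 comparisons among the other libraries kept the same genes. Calling was tested on simulated data with known folds and counting error only. Without a spread between cultures, that test cannot show how often 4-fold calls arise between like cultures. Named genes are, in each direction, the largest fold change whose interval excludes 2-fold and the largest difference in CPM. Gene lists for conidiation, fruiting bodies, osmostress and glycerol, trehalose, cation transport and heat shock could not be matched to IDs. The contrast, rules and lists were chosen with earlier results of these data known. Alternatives were DESeq2 1.42.0 size factors, total counts, TMM from the 1 M libraries, a prior count of 0.5, no minimum CPM, a minimum of 50 CPM, and a counting interval beyond 4-fold. A minimum of 10 CPM in the other comparisons too, and an exchange of the 3 M labels, were added after seeing the data.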

Additional observations from a re-analysis of the deposited data

Results flagged for a closer look

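Some genes had opposite changes with culture time in 1 M and, as its libraries are labelled, in 3 M NaCl. Each side is 1 library, and the difference was not tested. For 16 genes 84 h exceeded 36 h by 4-fold or more in 1 M while 36 h exceeded 84 h by 4-fold or more in 3 M. For 37 genes the signs were the other way round. They are 6.53% of the 245 higher and 20.1% of the 184 lower genes of 1 M, where 2.97% of all genes compared were 4-fold lower and 8.48% 4-fold higher with time in 3 M. The same direction at both salt concentrations was seen for 108 higher and 17 lower genes. The 16 genes had medians of 179 CPM at 84 h and 17.7 CPM at 36 h in 1 M, and of 4.56 CPM at 84 h and 56.9 CPM at 36 h in 3 M. AG01002.1 had a log2 fold change with time of 7.80 in 1 M and of -3.70 in 3 M. AG01457.1 had -7.20 in 1 M and 2.11 in 3 M. All of these rest on the labels of the 3 M libraries, whose exchange was not tested. With them exchanged, the genes of opposite direction would number 108 and 17 in place of 16 and 37, and AG01002.1 (3.70) and AG01457.1 (-2.11) would have the signs of 1 M.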

How the results depend on the processing

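No paired analysis was possible because each condition has 1 library. The 58 results were recomputed under up to 7 other settings, the named genes only under the other scalings and the prior count of 0.5. The 2 settings added after seeing the data covered only the 4-fold counts among the other libraries and the results with time in 3 M. Of 424 values, 357 stayed within 1.5 times of a reported count or within the counting or order-statistic interval of a reported value. With the 3 M labels exchanged, the median log2 fold change with time in 3 M turned to -1.70 in the higher and -0.31 in the lower group. The higher genes then had 16 genes 4-fold higher and 108 lower, and the lower genes 17 and 37, since the exchange turns each sign. No other setting changed a sign beyond its interval. TMM from the 1 M libraries alone, a prior count of 0.5 and the added minimum of 10 CPM moved none of them. The 245 higher genes were all kept with DESeq2 size factors (246 genes), as were 183 of the 184 lower genes. With total counts, 240 genes were higher and 191 lower. For the changes below, a change of filter or of call rule alters which genes enter the groups. The shares are of raw counts, so that a scaling changes them only through which genes enter. For the other changes under a scaling the cause was not tested.

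The share of counts of the higher genes in 1 M at 84 h was 7.45% with DESeq2 size factors, 7.39% with total counts, 7.46% with no minimum CPM, 7.25% with 50 CPM and 7.19% with the counting interval. That of the lower genes in 1 M at 36 h was 8.34% with total counts, 8.20% with no minimum, 7.96% with 50 CPM and 7.90% with the counting interval.

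With total counts, the median log2 fold change of the higher genes was -1.98 in 3 M at 36 h over 0 M and 0.58 in 4 M at 84 h over 3 M at 36 h, where 11 higher genes were 4-fold higher. The median of the lower genes in that last pair was -0.99. AG01935.1 had -2.92 with time in 1 M.

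With 50 CPM, the groups held only 174 higher and 115 lower genes, so that the counts given next are out of smaller groups. In runs of IDs lay 20 higher and 11 lower genes, and 13 lower genes had no other library nearer to the 84 h level. Higher genes nearer to the 84 h level were 22 in 0 M, 21 in 4 M and 12 in 3 M at 36 h. Lower genes nearer to it were 58 in 0 M, 86 in 4 M and 62 in 3 M at 36 h. Higher genes 4-fold higher were 9 in 3 M over 0 M and 2 in 4 M over 3 M at 36 h. Lower genes 4-fold higher were 22 with time in 3 M, 12 in 3 M over 0 M, 7 in 4 M over 0 M and 9 in 3 M at 36 h over 0 M. Lower genes 4-fold lower were 16 in 3 M over 0 M, 53 in 4 M over 3 M at 84 h and 18 in 3 M at 36 h over 0 M.

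With no minimum CPM, the groups were larger, at 295 higher and 309 lower genes, and 68 of the lower genes lay in runs of IDs. Lower genes nearer to the 84 h level were 146 in 0 M, 134 in 3 M at 84 h, 224 in 4 M and 153 in 3 M at 36 h, and 45 had none nearer. Higher genes nearer to it were 57 in 0 M and 30 in 3 M at 36 h, and 5 had all 4 nearer. The median of the lower genes in 4 M over 0 M was -1.31. Higher genes 4-fold higher were 19 in 4 M over 0 M and 10 in 3 M at 36 h over 0 M, and 11 were 4-fold lower in 4 M over 3 M at 36 h. Lower genes 4-fold higher were 45 in 3 M over 0 M, 21 in 4 M over 0 M, 13 in 4 M over 3 M at 84 h, 32 in 3 M at 36 h over 0 M and 2 in 4 M over 3 M at 36 h. With time in 3 M, 31 were 4-fold lower.

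With a counting interval beyond 4-fold, the groups held 211 higher and 152 lower genes. Of the higher genes, 12 were nearer to the 84 h level in 3 M at 36 h. Higher genes 4-fold higher were 68 with time in 3 M, 8 in 3 M over 0 M, 6 in 4 M over 3 M at 84 h and 3 in 4 M over 3 M at 36 h. Lower genes 4-fold higher were 20 with time in 3 M. Lower genes 4-fold lower were 13 in 3 M over 0 M and 16 in 3 M at 36 h over 0 M. At 0 to 3 counts a library cannot tell a low level from none.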
